A study of Mus musculus with 8 samples.

Results

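The p53 pathway was described here through 33 named genes, the p53 gene itself, its direct regulators and genes that p53 is known to switch on, in mouse embryonic fibroblasts without and with Daxx. Of the 33 genes, 29 had a probe set annotated to that gene alone, out of 19938 genes so measured, and each of the 29 had 1 such probe set. Trp53, Cdkn1a, Gdf15 and Fdxr were not analysed here. The RNA came from fibroblasts of Daxx knockout mice on an FVB/N background, so all 8 arrays share the knockout. In 4 samples the cells had been complemented with a vector alone, and these are the vector arrays. In 4 samples they had been complemented with Daxx, and these arrays carry the names DaxxA (2 arrays) and DaxxB (2 arrays), whose meaning the labels do not give. Cells were harvested 24 hours after seeding. The labels do not name the promoter that drives the Daxx construct, whether a line is 1 clone, or the age of the cultures, and they do not say that replicates were separate cultures, so p-values measure only the spread between these arrays. All values are log2 signals, and a change is the mean of the Daxx arrays minus the mean of the vector arrays with its standard error (SE) unless stated otherwise. A gene is called, and is said to have risen or fallen, at an adjusted p below 0.05 in limma over all 19938 genes.

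Vector replicate 2 stood apart from the other arrays. Its signals had an interquartile range of 2.79 against 3.31 to 3.39 in the other 7 arrays, and its mean correlation with them across probe sets was 0.969, while the others correlated with each other at 0.991 to 0.998. The results below are therefore given on all 8 arrays and on the 7 arrays without it. Daxx read 7.34, 6.85, 7.27 and 7.16 in vector replicates 1 to 4, 7.35 and 7.36 in DaxxA, and 7.46 and 7.23 in DaxxB. The change of 0.20 (SE 0.107, adjusted p = 0.46) left the vector and the complemented arrays overlapping, so the directions below rest on the labels alone. The sources used here do not give which part of the gene was deleted. They also do not give which part of the gene or of the construct the probe set reads. Whether this probe set can check the labels is therefore not known. As a level of background, the 95th percentile of the olfactory receptor genes (6.07) was taken. Of 11 fibroblast markers 10 lay above it, as did all 29 p53 pathway genes, against 0 of 5 endothelial markers, 2 of 6 blood markers (Cd68 and Cd3e, with Ptprc below) and 4 of 6 epithelial markers (Krt8, Krt18, Krt19 and Cldn4, with Epcam and Cdh1 below). None of the markers of other cell types was called between Daxx and vector in limma, and 0 of them had an unadjusted p under 0.05, on 8 or on 7 arrays. In DaxxB against vector on 7 arrays, Cd3e was higher by 0.25 (adjusted p = 0.0148), and Krt19, Kdr and Tek had an unadjusted p under 0.05 without being called. Of the fibroblast markers 3 fell (Dcn, Pdgfra and Pdgfrb), 1 rose (Col1a2) and 7 did not pass on 8 arrays. On 7 arrays 4 fell and 1 rose. These are 36.4% and 45.5% of the fibroblast markers, against 4.52% and 12.8% of all genes called. Averaged over the fibroblast markers, the vector arrays stood at 9.59 to 9.63 and the Daxx arrays at 9.27 to 9.40, and the part of that difference in the results below was not tested.

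p53 is a transcription factor that is held at a low level by the ubiquitin ligase Mdm2 and its partner Mdm4, and that accumulates when DNA damage, oncogene signalling or other stress frees it from them. It then binds response elements in the DNA and raises genes for cell cycle arrest, DNA repair, metabolism and cell death, as well as Mdm2 itself, which closes a negative feedback loop. In cultured mouse embryonic fibroblasts the pathway, with the Arf product of Cdkn2a upstream of it, drives the senescence that limits their growth. Daxx is a histone chaperone that is also known to bind Mdm2.

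The p53 response element is built from copies of a 10-base consensus, called the p53 decamer here. The consensus is RRRCWWGYYY, where R is A or G, W is A or T and Y is C or T. Only exact matches were counted, so a copy with any mismatch was neither counted nor marked. The 250 bases before annotated start sites were searched for it on both strands, in promoters that RefSeq gives for GRCm38.p6. Of the 29 genes 22 had at least 1 such promoter, and 9 of these 22 held the decamer: Aen, Ccng1, Ei24, Gadd45a, Mdm2, Polk, Ppm1d, Rps27l and Sesn1. Among all 27025 genes with a promoter of that length 8.2% held it. Counted by windows, 9 of 29 windows of these genes and 7.13% of all 32851 windows did. None of the 29 held a pair of exact decamers within 13 bases of each other, against 0.0639% of all windows. A decamer beside an inexact copy would not be counted as a pair, so lone decamers are not shown to be lone copies. Many known p53 elements lie outside so short a window, and a match is only a description. The promoters of Ccng1, Sesn1, Ei24 and Mdm2 are shown because they hold a decamer and belong to the genes described most fully below. Ccng1 and Sesn1 are called on 8 arrays in opposite directions, Ei24 on 7 arrays, and Mdm2 is the main regulator of p53. They were chosen after their values were seen, and are written in the direction of the gene. The capitals mark the decamer, and positions are counted back from the base just before the start site, which is -1. They lie at chr11:40755287-40755536, minus strand (Ccng1, decamer from -185), chr10:41887189-41887438, plus strand (Sesn1, 1 of its 2 listed starts, from -173), chr9:36797335-36797584, minus strand (Ei24, from -10) and chr10:117710759-117711008, minus strand (Mdm2, from -186).
Ccng1: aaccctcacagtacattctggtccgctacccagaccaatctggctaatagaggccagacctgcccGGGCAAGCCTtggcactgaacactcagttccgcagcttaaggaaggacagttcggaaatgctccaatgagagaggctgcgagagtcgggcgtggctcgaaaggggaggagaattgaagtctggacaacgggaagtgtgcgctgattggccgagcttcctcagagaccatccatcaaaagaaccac
Sesn1: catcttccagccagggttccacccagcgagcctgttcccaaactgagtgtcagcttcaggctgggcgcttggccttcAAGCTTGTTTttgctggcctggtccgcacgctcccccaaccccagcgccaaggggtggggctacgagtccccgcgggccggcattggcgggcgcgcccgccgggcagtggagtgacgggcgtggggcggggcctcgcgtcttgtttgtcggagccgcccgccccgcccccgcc
Ei24: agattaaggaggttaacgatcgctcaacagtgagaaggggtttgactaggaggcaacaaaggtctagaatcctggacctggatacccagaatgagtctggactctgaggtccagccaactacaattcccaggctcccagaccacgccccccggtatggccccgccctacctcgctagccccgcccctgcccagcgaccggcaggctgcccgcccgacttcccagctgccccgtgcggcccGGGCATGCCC
Mdm2: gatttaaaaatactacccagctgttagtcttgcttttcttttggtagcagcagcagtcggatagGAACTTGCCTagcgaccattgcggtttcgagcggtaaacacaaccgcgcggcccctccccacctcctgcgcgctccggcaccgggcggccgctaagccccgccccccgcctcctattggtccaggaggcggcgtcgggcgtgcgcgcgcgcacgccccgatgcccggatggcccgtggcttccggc

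Between the Daxx and the vector arrays, 3 of the 29 genes were called on 8 arrays and 9 on 7. On 8 arrays 2 rose (Trp53inp1 and Ccng1), 1 fell (Sesn1) and 26 did not pass, against 4.52% of all genes called (1.8% higher, 2.73% lower) and 6.64% (2.72% higher, 3.92% lower) of the 12974 genes above the olfactory receptor level. The median change of the 29 was 0.12, with 21 above 0 and 8 below, while the median of all genes was -0.03 and that of the genes above the olfactory receptor level 0.01. On 7 arrays, without vector replicate 2, 7 rose, 2 fell and 20 did not pass, against 12.8% of all genes called (5.26% higher, 7.57% lower) and 18.6% (7.6% higher, 11% lower) of those above that level. Trp53inp1, Ccng1 and Sesn1 were again called there in the same direction, with Btg2, Plk2, Plk3, Phlda3 and Polk higher and Ei24 lower. The median of the 29 was then 0.08, with 18 above 0. In 15 of the 29 genes the Daxx arrays did not overlap the vector arrays (12 higher, 3 lower), and these were the same 15 on 7 arrays. Of all genes, 14.8% were separated in this way on 8 arrays (8.02% higher, 6.79% lower) and 24.4% on 7 (11.5% higher, 12.9% lower). Of the genes above the olfactory receptor level 20.9% (11.9% higher, 8.99% lower) and 32.8% (14.6% higher, 18.2% lower) were. By an unadjusted limma p under 0.05, 13 of the 29 and 15.4% of all genes passed on 8 arrays, and 17 and 24.7% on 7. Because these genes were chosen with earlier results of these data known, the shares are a description and not a test. The calls on 8 arrays lay close to the threshold. Trp53inp1, Ccng1 and Sesn1 were called under 7, 6 and 6 of 16 alternative settings, and leaving out either array of DaxxA or DaxxB, or vector replicate 1 or 3, removed all 3. Without vector replicate 4 the calls were Btg2 and Trp53inp1. With DaxxA and DaxxB as separate groups, in a fit of 3 groups on the same 8 arrays, 0 of the 29 were called. In bulk samples such as these, a change in the share of cells that use a gene and a change of its RNA per cell cannot be told apart.

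**Figure D1:**
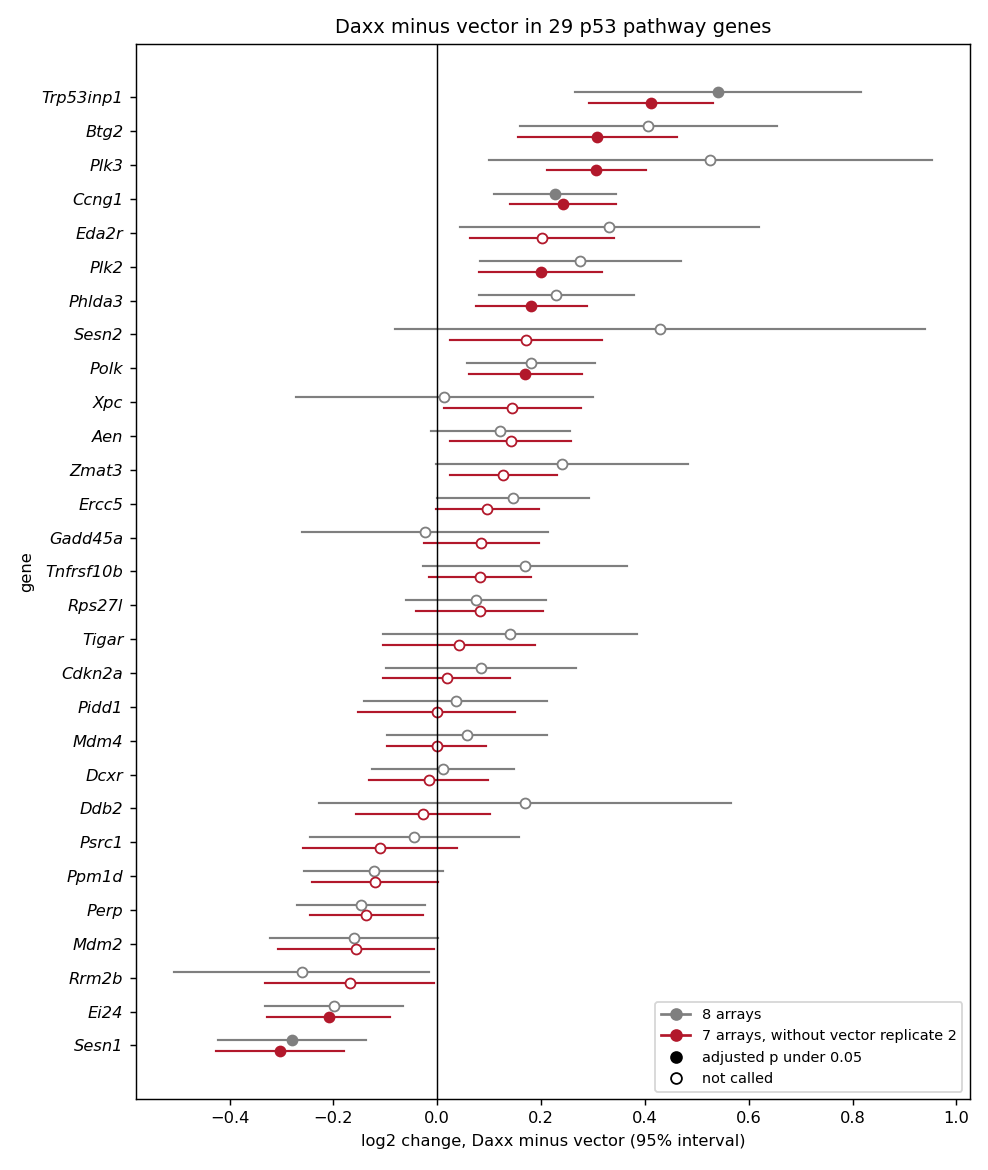
Change in log2 signal (horizontal axis, Daxx minus vector, with 95% intervals) for each of the 29 genes (vertical axis), on 8 arrays (grey) and on 7 arrays without vector replicate 2 (red); filled points have an adjusted p below 0.05. On 8 arrays 3 genes are filled and on 7 arrays 9 are, with Trp53inp1 the highest and Sesn1 the lowest on 7 arrays.

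Between Daxx and vector, none of the 4 measured regulators of p53 was called on 8 or on 7 arrays. The shares over all genes were 4.52% and 12.8%, and 4 genes are too few to differ clearly from them. In DaxxB alone against vector, Mdm2 was called on 7 arrays, as given below. Mdm2, the ubiquitin ligase of p53, is itself a p53 target. Mdm2 read 11.45, 11.43, 11.40 and 11.39 in vector replicates 1 to 4, 11.43 and 11.27 in DaxxA, and 11.23 and 11.11 in DaxxB. The 4 vector arrays lay within 0.06 of each other, DaxxA replicate 1 lay among them and the other Daxx arrays were lower. The change was -0.16 (SE 0.0709, adjusted p = 0.327; 95% interval -0.32 to 0.00) on 8 arrays and -0.16 (adjusted p = 0.181) on 7. Cdkn2a encodes both the cell cycle inhibitor p16Ink4a and Arf, which binds and blocks Mdm2, and the sources used here do not say which of its transcripts the probe set reads. Cdkn2a read 8.82, 8.57, 8.82 and 8.87 in vector replicates 1 to 4, 8.81 and 8.74 in DaxxA, and 8.93 and 8.93 in DaxxB. Vector replicate 2 was the lowest of all arrays and both DaxxB arrays were the highest. The change was 0.08 (SE 0.0805, adjusted p = 0.69) on 8 arrays and 0.02 (95% interval -0.10 to 0.14) on 7. For Mdm4, the Mdm2 relative that masks the activation domain of p53, the change was 0.06 (95% interval -0.10 to 0.21). It was -0.12 (95% interval -0.26 to 0.01) for Ppm1d, the Wip1 phosphatase that ends the damage response, both on 8 arrays.

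Among 7 measured genes of arrest and growth control, 1 rose on 8 arrays and 4 rose on 7, and none fell. For comparison, 1.8% of all genes rose on 8 arrays and 5.26% on 7. Above the olfactory receptor level these shares were 2.72% and 7.6%. Ccng1 encodes cyclin G1, a p53 target that recruits a phosphatase to Mdm2. Ccng1 read 11.80, 11.90, 11.82 and 11.89 in vector replicates 1 to 4, 12.03 and 12.08 in DaxxA, and 12.14 and 12.08 in DaxxB. Every Daxx array lay above every vector array, vector replicate 2 included. Ccng1 rose 1.17-fold, by 0.23 (SE 0.0519, adjusted p = 0.0463), and on 7 arrays by 0.24 (SE 0.0457, adjusted p = 0.00577). Over the 16 alternatives its adjusted p ran from 0.00126 to 0.263.

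Btg2, an antiproliferative p53 target that slows entry into the cell cycle, was called on 7 arrays only. Btg2 read 7.63, 7.30, 7.58 and 7.87 in vector replicates 1 to 4, 7.94 and 7.97 in DaxxA, and 8.09 and 8.01 in DaxxB. The vector arrays spread widely, with replicate 4 only 0.07 below the lowest Daxx array. Its change was 0.41 (SE 0.109, adjusted p = 0.0813) on 8 arrays, and on 7 arrays it rose by 0.31 (SE 0.0691, adjusted p = 0.0145). Both polo-like kinases of the group, Plk2 and Plk3, which act in centriole duplication and stress responses, separated the conditions. Plk3 read 8.04, 7.16, 8.03 and 8.05 in vector replicates 1 to 4, 8.40 and 8.33 in DaxxA, and 8.30 and 8.38 in DaxxB. The other 3 vector arrays spanned 0.0194 and vector replicate 2 lay 0.88 below their mean, and the change was 1.72 times as large with that array as without it. It was 0.53 (SE 0.188, adjusted p = 0.199) on 8 arrays, whereas on 7 arrays Plk3 rose by 0.31 (SE 0.0427, adjusted p = 0.000937). Plk2 read 9.47, 9.20, 9.45 and 9.60 in vector replicates 1 to 4, 9.77 and 9.74 in DaxxA, and 9.64 and 9.67 in DaxxB. All 4 Daxx arrays were above all vector arrays, with 0.04 between the groups. On 8 arrays the Plk2 change was 0.28 (SE 0.0854, adjusted p = 0.131), and on 7 arrays it rose by 0.20 (SE 0.0531, adjusted p = 0.0335).

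The remaining arrest genes were not called on 8 or 7 arrays. Zmat3, an RNA-binding zinc finger protein, changed by 0.24 on 8 arrays and 0.13 on 7 (95% interval 0.02 to 0.23), and its Daxx arrays did not overlap the vector arrays. Psrc1, a microtubule-associated protein, gave -0.04 and -0.11. Gadd45a, which acts in growth arrest and DNA repair, gave -0.02 on 8 arrays and 0.08 on 7. Its vector replicate 2 was at 7.30 and all other arrays lay between 6.81 and 7.01.

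**Figure D2:**
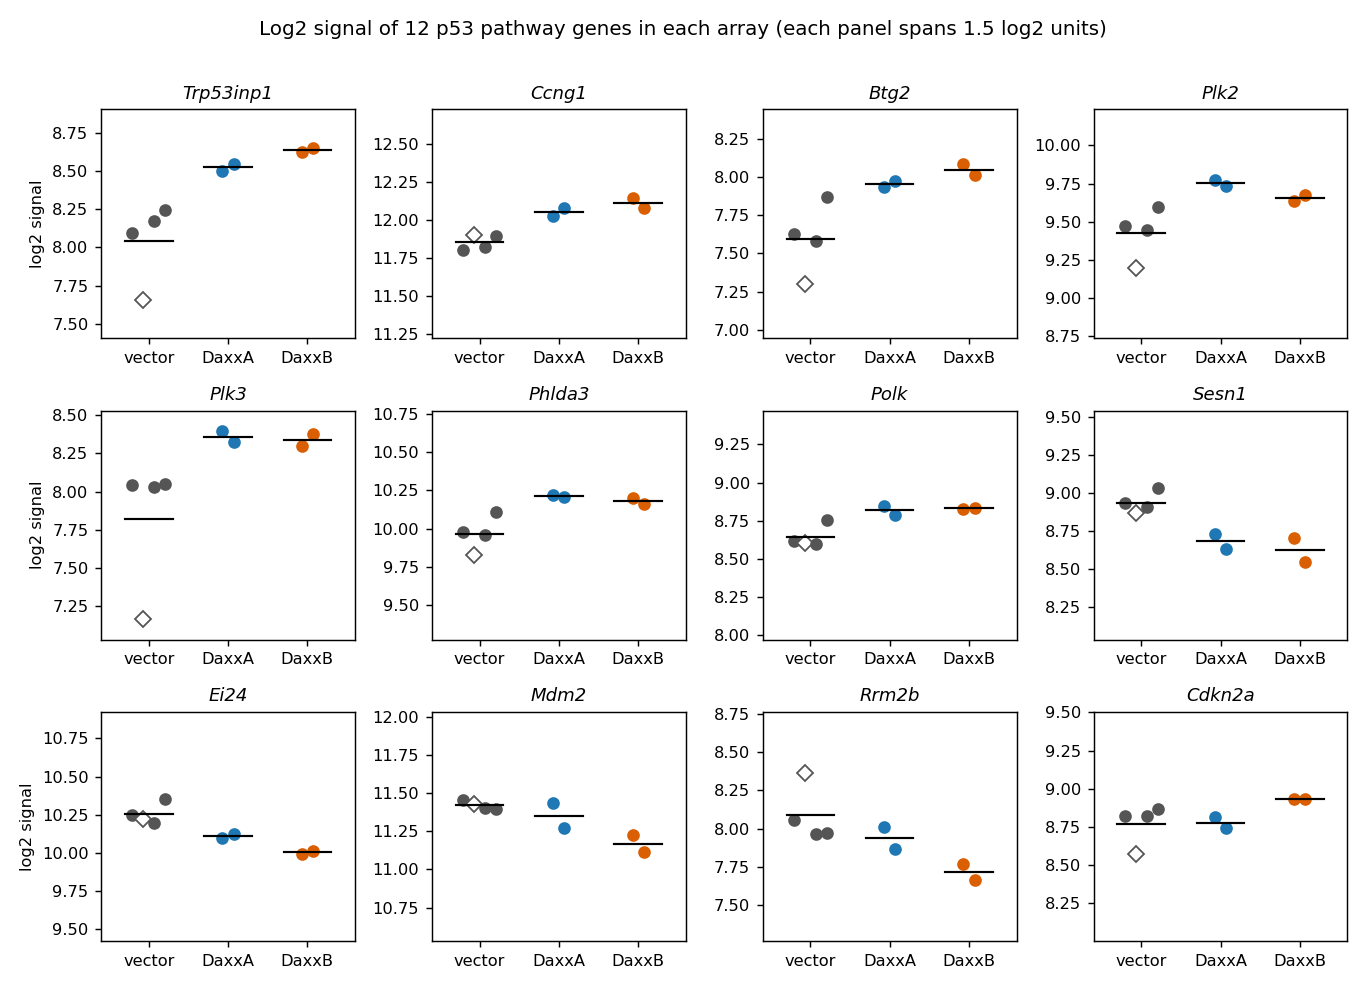
Log2 signal (vertical axis) of 12 genes in each array, grouped as vector (grey), DaxxA (blue) and DaxxB (orange); each point is 1 array, lines are group means, and the open diamond is vector replicate 2. The Daxx arrays lie above the vector arrays for Trp53inp1, Ccng1, Btg2, Plk2, Plk3, Phlda3 and Polk and below them for Sesn1 and Ei24, while Mdm2, Rrm2b and Cdkn2a overlap.

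The sestrins Sesn1 and Sesn2, stress-induced proteins that restrain the growth kinase complex mTORC1, did not go the same way. Sesn1 read 8.93, 8.87, 8.91 and 9.03 in vector replicates 1 to 4, 8.73 and 8.64 in DaxxA, and 8.71 and 8.54 in DaxxB. All Daxx arrays were below all vector arrays, with 0.14 between the groups. Sesn1 fell 1.21-fold, by 0.28 (SE 0.0626, adjusted p = 0.0421), and on 7 arrays by 0.30 (SE 0.0559, adjusted p = 0.00513). Its adjusted p over the alternatives ran from 0.00172 to 0.232. Sesn2 read 8.29, 7.15, 8.14 and 8.11 in vector replicates 1 to 4, 8.38 and 8.28 in DaxxA, and 8.49 and 8.25 in DaxxB. Vector replicate 2 lay 1.03 below the mean of the other vector arrays, which overlapped the Daxx arrays. The Sesn2 change was 0.43 (SE 0.225, adjusted p = 0.439) on 8 arrays and 0.17 (95% interval 0.02 to 0.32, adjusted p = 0.134) on 7. Tigar, which lowers glycolytic flux, gave 0.14 and 0.04. Dcxr, a carbonyl and xylulose reductase, gave 0.01 (95% interval -0.13 to 0.15) and -0.02, and neither Tigar nor Dcxr was called.

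Of 9 measured genes of cell death and survival, 1 rose on 8 arrays, and on 7 arrays 2 rose and 1 fell. Shares called over all genes were 4.52% on 8 arrays and 12.8% on 7, and above the olfactory receptor level 6.64% and 18.6%. Trp53inp1, with the highest change of all 29 genes, encodes a stress-induced nuclear protein that promotes p53 activity and autophagy. Trp53inp1 read 8.09, 7.66, 8.18 and 8.24 in vector replicates 1 to 4, 8.50 and 8.55 in DaxxA, and 8.62 and 8.65 in DaxxB. The Daxx arrays lay within 0.15 of each other and at least 0.26 above every vector array. Trp53inp1 rose 1.45-fold, by 0.54 (SE 0.121, adjusted p = 0.0429), and on 7 arrays by 0.41 (SE 0.054, adjusted p = 0.000629). Over the alternatives its adjusted p ran from 0.000137 to 0.14.

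Phlda3, a pleckstrin homology protein that competes with the kinase Akt at the membrane, was higher too. Phlda3 read 9.98, 9.82, 9.96 and 10.11 in vector replicates 1 to 4, 10.22 and 10.21 in DaxxA, and 10.20 and 10.16 in DaxxB. The Daxx arrays lay within 0.06 of each other, and vector replicate 4 was the nearest vector array. Its change was 0.23 (SE 0.0657, adjusted p = 0.103) on 8 arrays and on 7 arrays it rose by 0.18 (SE 0.0482, adjusted p = 0.0327). Ei24, an endoplasmic reticulum protein of autophagy and apoptosis, went the other way. Ei24 read 10.25, 10.22, 10.19 and 10.36 in vector replicates 1 to 4, 10.10 and 10.12 in DaxxA, and 9.99 and 10.01 in DaxxB. Both DaxxB arrays were the lowest, the DaxxA arrays were next, and all vector arrays were above them. Its change was -0.20 (SE 0.0583, adjusted p = 0.111) on 8 arrays, and on 7 arrays it fell by 0.21 (SE 0.0538, adjusted p = 0.0283).

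The other 6 genes of this group were not called on either set of arrays. Eda2r, a receptor of the tumour necrosis factor family, changed by 0.33 on 8 arrays and by 0.20 on 7 (adjusted p = 0.0637). Tnfrsf10b, the mouse TRAIL death receptor, gave 0.17 and 0.08, and Aen, an apoptosis-enhancing nuclease, gave 0.12 and 0.14. In these 3 genes the Daxx arrays all lay above the vector arrays, by 0.05 in Eda2r, 0.01 in Aen and 0.0031 in Tnfrsf10b. In Perp, a membrane protein of desmosomes and of p53-dependent death, they all lay below, with a change of -0.15 (adjusted p = 0.214) and -0.14 on 7 arrays (95% interval -0.25 to -0.03). Pidd1, the scaffold of the caspase-2 activating complex, and Rps27l, a ribosomal protein relative induced by p53, overlapped between the conditions, with changes of 0.04 and 0.08.

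DNA repair and nucleotide supply genes had 0 of 5 called on 8 arrays and 1 on 7. This is 20% on 7 arrays, near the 18.6% of genes above the olfactory receptor level called there (12.8% of all genes). The gene called was Polk, the translesion DNA polymerase kappa. Polk read 8.62, 8.61, 8.59 and 8.75 in vector replicates 1 to 4, 8.85 and 8.79 in DaxxA, and 8.83 and 8.83 in DaxxB. The 4 Daxx arrays were within 0.06 of each other, and vector replicate 4 was the nearest vector array, 0.04 below the lowest of them. The change was 0.18 (SE 0.0542, adjusted p = 0.118) on 8 arrays, and on 7 arrays Polk rose by 0.17 (SE 0.0491, adjusted p = 0.0474). Rrm2b is the p53-induced ribonucleotide reductase subunit that supplies nucleotides for repair. Rrm2b read 8.05, 8.37, 7.96 and 7.97 in vector replicates 1 to 4, 8.01 and 7.87 in DaxxA, and 7.77 and 7.66 in DaxxB. Vector replicate 2 was the highest array and both DaxxB arrays the lowest, while DaxxA replicate 1 lay inside the range of the vector arrays. Its change of -0.26 (SE 0.108, adjusted p = 0.286) became -0.17 (adjusted p = 0.184) on 7 arrays. Ercc5, the XPG repair endonuclease, gave 0.15 and 0.10 and did not overlap between the conditions. Ddb2 and Xpc, which recognise ultraviolet damage, had vector replicate 2 far from the other vector arrays, by -0.79 and 0.53 from their mean. Ddb2 gave 0.17 on 8 arrays and -0.03 on 7, and Xpc gave 0.01 and 0.14, with adjusted p-values of 0.7005 and 0.967 on 8 arrays.

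In many of these genes vector replicate 2 lay apart from the other vector arrays. It was the lowest of the 8 arrays in 16 of the 29 (55.2%), against 43.2% of genes above the olfactory receptor level and 29.4% of all genes. It was the highest in 4 (Gadd45a, Perp, Rrm2b and Xpc), against 21.2% and 42.3%. It lay below the mean of the other 3 vector arrays in 20 genes, by more than 0.2 in 14 of them, and above it in 9, by more than 0.2 in 3. The other 3 vector arrays spanned more than 0.2 in 1 gene, Btg2. Averaged over the 29 genes, vector replicate 2 stood at 8.37. The remaining vector arrays stood at 8.55 to 8.59, and the 4 Daxx arrays at 8.60 to 8.64. In Ccng1, Sesn1, Ei24 and Polk it lay 0.06, -0.09, -0.04 and -0.05 from their mean, and the changes of these genes on 8 and on 7 arrays differed by less than 1 SE. In 9 genes (Cdkn2a, Eda2r, Ercc5, Plk3, Rrm2b, Sesn2, Tigar, Tnfrsf10b and Zmat3) the change on 8 arrays had the same sign as on 7 and was over 1.5 times as large. The part of this array's quality in these differences was not tested. In 5 genes that were not called on either set (Mdm4, Gadd45a, Dcxr, Pidd1 and Ddb2) the sign of the change turned.

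**Figure D3:**
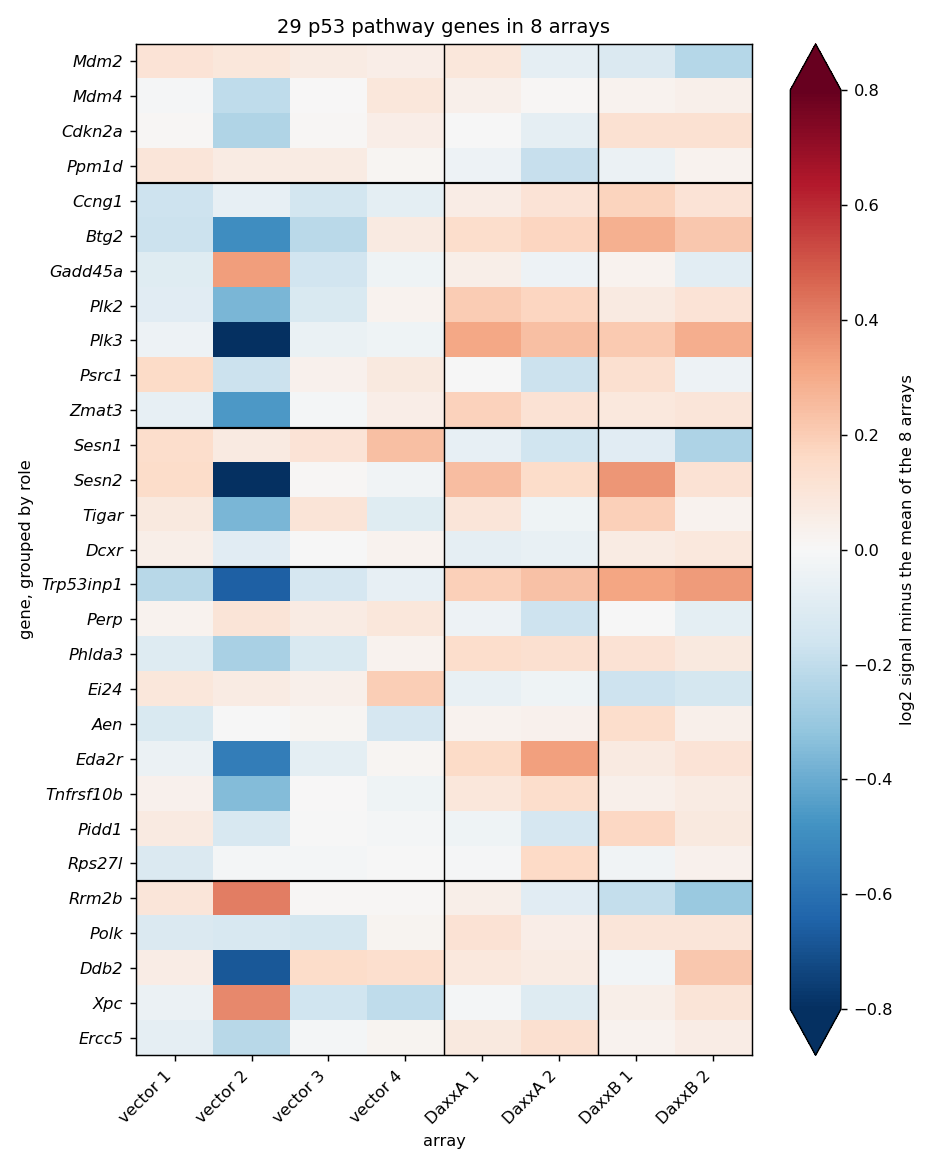
Log2 signal of the 29 genes (rows, grouped by role and divided by black lines) in each of the 8 arrays (columns), as the difference from the gene's mean over the 8 arrays, with the colour scale ending at -0.8 and 0.8. The column of vector replicate 2 holds the strongest colours, blue in Plk3, Sesn2, Ddb2, Trp53inp1 and Eda2r and red in Rrm2b, Xpc and Gadd45a.

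DaxxA and DaxxB were then set against the same vector arrays, so the 2 comparisons share those arrays. On 8 arrays 0 of the 29 genes were called in either one, against 1.97% of all genes for DaxxA (0.522% higher, 1.45% lower) and 2.69% for DaxxB (0.767% higher, 1.92% lower), and 10 and 9 of the 29 had an unadjusted limma p under 0.05, as did 11.4% and 14.5% of all genes. On 7 arrays 6 rose and 1 fell in DaxxA, against 11.3% of all genes called (4.46% higher, 6.8% lower), and 5 rose and 4 fell in DaxxB, against 20.5% (10.9% higher, 9.53% lower). By an unadjusted p under 0.05 these were 16 and 14 of the 29, against 23.6% and 34.7% of all genes. Trp53inp1 changed by 0.35 in DaxxA and 0.47 in DaxxB, Plk3 by 0.32 and 0.29, Ccng1 by 0.21 and 0.27 and Sesn1 by -0.27 and -0.33, all called in both on 7 arrays. Plk2 (0.25 and 0.15), Phlda3 (0.20 and 0.16) and Eda2r (0.28 and 0.13) were called in DaxxA but not in DaxxB. Btg2 (0.26 and 0.36), Xpc (0.08 and 0.21), Ei24 (-0.16 and -0.26), Rrm2b (-0.06 and -0.28) and Mdm2 (-0.07 and -0.25) were called in DaxxB but not in DaxxA.

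The difference between DaxxA and DaxxB was itself tested in the fit of 3 groups, and 0 of the 29 genes were called on 8 or on 7 arrays, where 0% and 2.15% of all genes were (0.787% higher and 1.36% lower in DaxxA on 7 arrays). On 8 arrays 1 of the 29 had an unadjusted p under 0.05 (4.24% of all genes), and on 7 arrays 6 had (22.3% of all genes). Pidd1 gave -0.21 for DaxxA minus DaxxB (95% interval -0.34 to -0.08 on 7 arrays, adjusted p = 0.0888). On 7 arrays Rrm2b was 0.22 higher in DaxxA (95% interval 0.07 to 0.37, adjusted p = 0.0974). Mdm2 was 0.18 higher in DaxxA there (95% interval 0.03 to 0.33, adjusted p = 0.15). On 8 arrays the intervals of Rrm2b and Mdm2 included 0, at -0.11 to 0.55 for Rrm2b and -0.008 to 0.37 for Mdm2. That of Pidd1 did not, at -0.41 to -0.006, but Pidd1 was not called there. Vector arrays enter this test only through the shared spread, so the difference itself is the same on both sets. Cdkn2a gave -0.16 (95% interval -0.27 to -0.04 on 7 arrays, adjusted p = 0.124, and -0.40 to 0.09 on 8). Its DaxxA values of 8.81 and 8.74 lay below the DaxxB values, which were both 8.93. For Trp53inp1 the difference was -0.11 (95% interval -0.25 to 0.02 on 7 arrays), and for Sesn1 0.06 (95% interval -0.10 to 0.21 on 7 arrays). A gene called in one of DaxxA and DaxxB alone was thus not shown to differ between them.

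**Figure D4:**
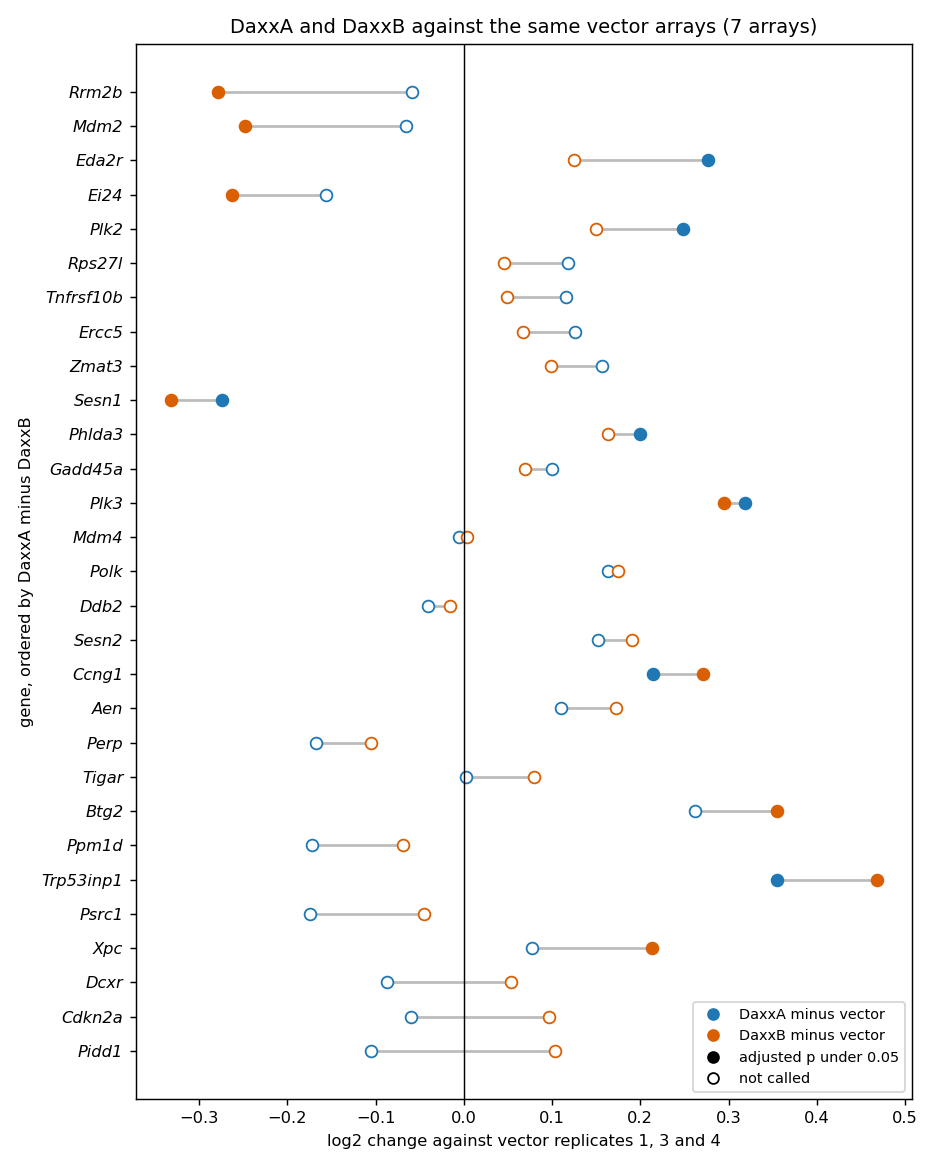
Log2 change (horizontal axis) of DaxxA (blue) and DaxxB (orange) against the same vector replicates 1, 3 and 4, for each of the 29 genes (vertical axis, ordered by DaxxA minus DaxxB); filled points have an adjusted p below 0.05. Trp53inp1, Plk3, Ccng1 and Sesn1 are filled for both, and the widest gaps between the points are in Rrm2b, Pidd1 and Mdm2.

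Other genes of the pathway were taken from 3 further lists, chosen with earlier results of these data known. Of 24 kinases and cofactors that act on or with p53, 1 rose and 0 fell on 8 arrays (median change -0.01), and 1 rose and 2 fell on 7 (median -0.03). These are 4.17% and 12.5% of the list, near the 4.52% and 12.8% of all genes called. The gene that rose was Ppp1r13b, which encodes ASPP1, a cofactor that directs p53 to death genes. It went from 8.88 ± 0.212 (SD, n = 4) in the vector arrays to 9.42 ± 0.0469 (SD, n = 4) in the Daxx arrays, a change of 0.54 (SE 0.0998, adjusted p = 0.0184) that was 0.44 (adjusted p = 9.64e-05) on 7 arrays. Those that fell on 7 arrays were Pml, the organiser of the nuclear bodies in which Daxx resides, by 0.19 (adjusted p = 0.0314), and Sirt1, a deacetylase of p53, by 0.25 (adjusted p = 0.0351).

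Another 37 p53 targets were listed and 32 were measured, of which 4 rose, 3 fell and 25 did not pass on 8 arrays (21.9% called, median 0.02), and 5 rose and 8 fell on 7 (40.6% called, median -0.03). Of all genes 4.52% were called on 8 arrays and 12.8% on 7, and of those above the olfactory receptor level 6.64% and 18.6%. Because the list was chosen with earlier results known, these shares cannot test whether p53 targets are called more often. Dglucy, a mitochondrial D-glutamate cyclase, rose by 0.55 (SE 0.06, adjusted p = 0.00129), from 6.88 ± 0.0768 to 7.42 ± 0.0645 (SD, n = 4 and 4). Trp53i11, a p53-induced membrane protein, rose 1.7-fold, by 0.76 (SE 0.086, adjusted p = 0.00149). Igfbp3, a secreted binder of insulin-like growth factors, fell by 0.75 (SE 0.123, adjusted p = 0.0104), and Ccnd1, cyclin D1, rose by 0.23 (SE 0.0461, adjusted p = 0.025). All of these were called in the same direction on 7 arrays, with changes of 0.56, 0.71, -0.88 and 0.23. On 8 arrays the changes in this list ran from -0.75 to 0.76, and those of the 29 genes from -0.28 to 0.54.

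Cell cycle genes that p53 lowers through the DREAM repressor complex had 0 of 25 measured members (27 listed) called on 8 arrays, with a median of -0.04. On 7 arrays 3 fell and 0 rose, with a median of -0.07. These were Ccnb2, a mitotic cyclin, by 0.17 (adjusted p = 0.0184), Top2a, the DNA topoisomerase of dividing cells, by 0.25 (adjusted p = 0.0136), and Prc1, a spindle midzone protein, by 0.19 (adjusted p = 0.017). On 8 arrays 15 of the 25 had a value below 0 and 10 above, where 41.8% of all genes and 53.9% of those above the olfactory receptor level were above 0. On 7 arrays 19 were below and 6 above, where those shares above 0 were 57.1% and 52.4%. On 8 arrays 4 of the 25 had an unadjusted limma p under 0.05, as did 15.4% of all genes. The genes called on 7 arrays were 12% of the list, near the 12.8% of all genes called there. Above the olfactory receptor level 18.6% were called on 7 arrays. On 8 arrays these 2 shares were 4.52% and 6.64%.

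**Figure D5:**
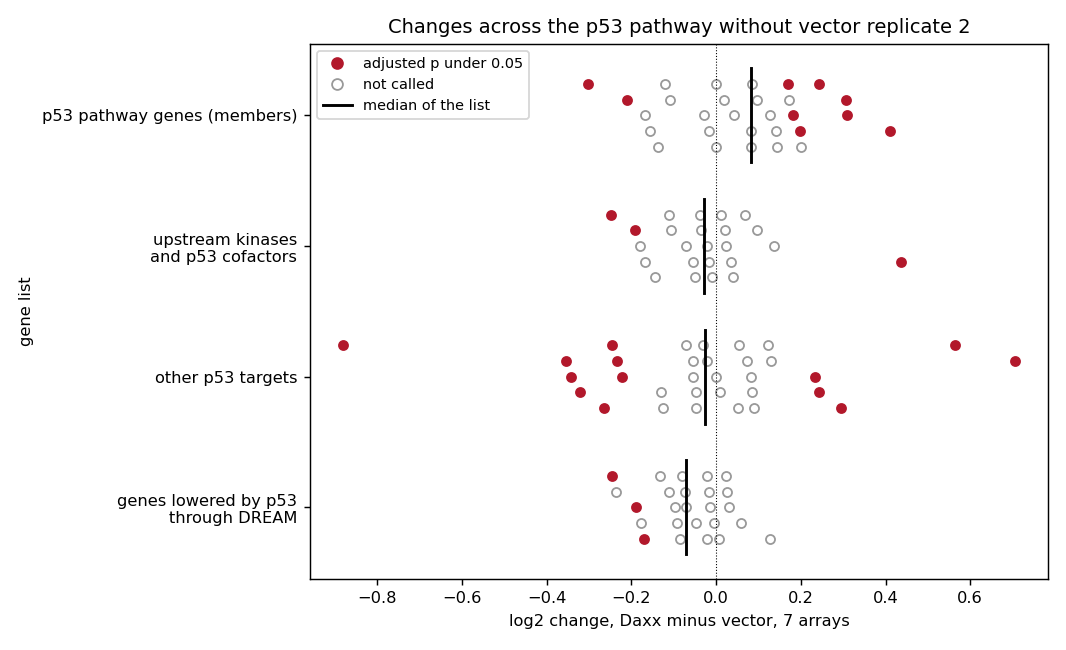
Log2 change (horizontal axis, Daxx minus vector on 7 arrays without vector replicate 2) of each measured gene in 4 lists (vertical axis); red points have an adjusted p below 0.05, and black lines are list medians. The 29 pathway genes have a median of 0.08, and the medians of the other lists are -0.03, -0.03 and -0.07.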

How the data were processed

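Each array was hybridised with labelled material made from 250 ng of total RNA. The values are log2 signals that the authors deposited, made with Affymetrix Expression Console and RMA (background correction, quantile normalization, probe summary), per the submitters' processing notes; the sources used here do not give versions, library file or genome build. RMA compresses differences near background, and no detection calls are given. Of 35556 probe sets 21789 had 1 gene symbol, 1621 several and 12146 none listed; per gene the probe set of highest mean signal was kept (19938 genes, 19856 matched to RefSeq by gene number). The number of arrays limits the precision. Tests used lmFit and eBayes of limma 3.58.1 (R 4.3.3), with Benjamini-Hochberg adjustment over all genes: Daxx against vector in 2 conditions, DaxxA and DaxxB in a fit of 3 groups with shared spread. The fit was tested on data simulated with the same spread in every array of a gene, so without an array like vector replicate 2. The genes and lists were chosen with earlier results of these data known. Named were all measured members, those called (or central) with every array's value, and up to 4 called genes of each further list. The exact test planned for Trp53 was not run, since no probe set names that gene alone. The alternatives were each array left out, quantile normalization again, median centring, a filter on dim genes, the mean of probe sets, trended robust eBayes, array weights, a replicate block and, for Daxx against vector, the fit of 3 groups. The share of genes called above the olfactory receptor level was added after seeing the data. Promoters from RefSeq were cut to the 250 bases before the start.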

Additional observations from a re-analysis of the deposited data

Results flagged for a closer look

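Of 58 groups of 4 arrays tested (29 genes, vector and Daxx), 8 had 1 array far from the other 3 by Dixon's test (gap over range above the 95% critical value), a test that chance passes in about 1 of 20 groups. In 5 of the 8 that array was vector replicate 2, each time the lowest. It read 8.57 in Cdkn2a (8.82 to 8.87 in the others), 7.16 in Plk3 (8.03 to 8.05), 7.15 in Sesn2 (8.11 to 8.29), 6.51 in Eda2r (6.99 to 7.08) and 5.95 in Ddb2 (6.69 to 6.78). The other 3 lay on different arrays. Aen in DaxxB replicate 1 was at 7.50, above 7.39 to 7.40 in the other Daxx arrays. Rps27l in vector replicate 1 was at 9.77, below 9.87 to 9.88. Polk in vector replicate 4 was at 8.75, above 8.59 to 8.62.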

How the results depend on the processing

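The number of called genes moved with the setting, and so did the changes. For Daxx against vector, the change of Sesn2 ran from 0.16 to 0.63 over the alternatives, and that of Xpc from -0.16 to 0.14. No change of the 29 genes that was called on 8 arrays turned its sign under any alternative. Xpc in DaxxB against vector was called with array weights (0.20) and without vector replicate 2 (0.21). With the replicate block, whose changes rest on vector replicates 1 and 2 alone, it was -0.09 and not called. For Daxx against vector the 3 calls among the 29 became 11 with array weights, 7 after quantile normalization again, 5 with trended robust eBayes, 5 with the filter on dim genes, and 0 with median centring or the fit of 3 groups. Leaving out single arrays gave 0 to 9, with 9 without vector replicate 2 and 2 without vector replicate 4. Over all genes 902 calls became 3231 with weights, 1402 after quantile normalization, 561 with centring, and 446 to 2558 with single arrays left out. They became 1287 with trended robust eBayes, 1334 with the filter (of 12974 genes kept) and 807 with the fit of 3 groups. For DaxxA against vector the 0 calls became 11 with weights and 1 (Ccng1) with trended robust eBayes, and 0 to 7 with single arrays left out. Over all genes 393 became 2718 with weights, 659 after quantile normalization, 600 with the filter, 223 with centring and 71 to 2246 with arrays left out. For DaxxB against vector the 0 calls became 12 with weights, 3 each with trended robust eBayes, the filter and quantile normalization, and 0 to 9 with arrays left out. Over all genes 536 became 4252 with weights, 1037 after quantile normalization (406 higher and 631 lower, against 153 and 383), 931 with the filter, 901 with trended robust eBayes, 257 with centring and 82 to 4083 with arrays left out. Between DaxxA and DaxxB none of the 29 was called under any alternative in limma (1 unadjusted p under 0.05 on 8 arrays), and over all genes 0 became 485 with weights and 0 to 428 with arrays left out. The cause of these shifts was not tested. Where an array is left out of DaxxA or DaxxB, the remaining one is assumed to vary like the other groups.

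Arrays that share a replicate number deviated together weakly (r = 0.162, 0.118, 0.0694, 0.0238 and 0.0963 for the pairs that share a number). The last value holds for both pairs of DaxxA with DaxxB, since deviations in a group of 2 arrays mirror each other. As not each r was over 0.1, the numbers were not taken as pairs. Arrays with different numbers were not compared in this way, so these values cannot decide whether the numbers are pairs. With the replicate number as a block, Daxx against vector had 162 genes called (161 of them among the 902) and 0 of the 29. Both DaxxA and DaxxB against vector had 0 genes called in that fit. Numbers 3 and 4 occur only among the vector arrays, so that fit compares the Daxx arrays with vector replicates 1 and 2 alone. It therefore also puts more weight on vector replicate 2, and is not only a check of pairing.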
